A study of Mus musculus with 8 samples.

Results

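A set of 10 genes of the Bcl2 family was followed in mouse fetal ovaries with a germ cell-directed deletion of the BMP receptor gene *Bmpr1a*. The genes were chosen by symbol and were the pro-survival genes *Bcl2*, *Bcl2l1* and *Mcl1*, the effector genes *Bax*, *Bak1* and *Bok*, and the BH3-only genes *Bbc3*, *Pmaip1*, *Bcl2l11* and *Bid*. All 10 were among the 25239 gene symbols counted in the series. In *Bmpr1a*-cKO ovaries *Bax* was at 1.73 times its control level, while *Bcl2* and *Bcl2l1* were 0.847 and 0.859 times their control levels. The *Bax* difference no longer passed the test when libraries were scaled to germ cell markers. The smaller differences of *Bcl2* and *Bcl2l1* did not pass with scaling to *Ddx4*, or with certain single libraries left out. *Mcl1*, *Bak1*, *Bok*, *Bbc3*, *Bcl2l11* and *Bid* did not pass the test, and *Pmaip1* was too sparsely counted to enter it.

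Proteins of the Bcl2 family decide whether the outer membrane of the mitochondrion stays intact. The effectors BAX and BAK1 form pores in that membrane, through which cytochrome c escapes to start the caspase cascade, and BOK is a related effector. BCL2, BCL-XL (encoded by *Bcl2l1*) and MCL1 bind and hold back the effectors, and BH3-only proteins such as PUMA (*Bbc3*), NOXA (*Pmaip1*), BIM (*Bcl2l11*) and BID either occupy the pro-survival proteins or activate the effectors. Germ cells of the fetal ovary are lost in large numbers around the time of meiotic prophase, and BAX and BCL-XL are both known to govern how many of them survive.

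Bulk RNA-Seq was carried out on whole ovaries at E14.5, with 4 libraries for each genotype. Each library was a pool of the ovary pairs of 2 female C57BL/6 embryos, 8 embryos for each genotype, and littermates from 6 litters served as both genotypes, although the litter of each library was not given. Controls were Bmpr1a fl/fl and carried no Cre. *Bmpr1a*-cKO embryos were Bmpr1a fl/fl; Oct4-Cre Cre/WT, in which a tamoxifen-inducible Cre recombinase is driven from *Oct4*, so that only the germ cells of the gonad are expected to lose the floxed gene and the somatic cells keep it. Both genotypes had been exposed *in utero* to 1 mg 4-hydroxytamoxifen with 0.5 mg progesterone once a day from 9.5 to 11.5 dpc. Because a whole ovary was measured, a lower share of cells of a type and less RNA in each such cell cannot be told apart.

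The libraries held between 8562961 and 15365052 counts, and a difference in totals between genotypes was not detected (exact permutation test, two-sided, p = 0.80). Factors from TMM scaling, which correct for the composition of a library, were 1.00 to 1.03 in controls and 0.972 to 0.990 in *Bmpr1a*-cKO libraries (p = 0.0286 in the same exact test, the lowest that 4 against 4 can give). Of all genes, 14249 were counted deeply enough to be tested with edgeR, and 1449 of these were DEGs, defined as an absolute log2 fold change (Log2FC) above 0.5 with an FDR below 0.05. The DEGs divided into 871 higher and 578 lower, or 346 higher and 2601 lower when libraries were scaled to their summed germ cell marker counts. *Bmpr1a* itself averaged 218 CPM (counts per 1000000 counts) in controls and 195 CPM in *Bmpr1a*-cKO ovaries (Log2FC -0.16, FDR = 0.0692). Its FDR was below 0.05 in 6 of 21 alternatives, among them DESeq2 (0.047), library size alone (0.0273), the fit without control replicate 1 (0.0394), the fit without *Bmpr1a*-cKO replicate 4 (0.0415) and the fit with the replicate number as a block (0.0416). Counts over a whole gene with intact somatic cells do not check the labels. The germ cell markers *Ddx4*, *Dazl*, *Mael* and the like were present in every library, as were markers of pregranulosa cells, endothelium and macrophages. The adult globin genes *Hba-a1*, *Hba-a2*, *Hbb-bt* and *Hbb-bs* were listed at 0 in all 8 libraries, while the embryonic globin gene *Hbb-y* was detected.

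Of the 10 Bcl2 family genes, 9 passed the filter on low counts. Of those 9, 3 had an FDR below 0.05, where 29.8% of all tested genes did. One of the 3, *Bax*, was higher (17.3% of all tested genes were) and the other two, *Bcl2* and *Bcl2l1*, were lower (12.5% of all tested genes). *Bax* was also the only DEG among the 9, against 10.2% of all tested genes in either direction and 6.11% in the upward direction. Control and *Bmpr1a*-cKO libraries did not overlap for 3 of the 9 genes, again *Bax*, *Bcl2* and *Bcl2l1*, against 27.9% of all tested genes. The median Log2FC of the 9 genes was 0.03, and that of all tested genes was -0.0042. The shares of called genes in the family were therefore close to those of all genes, and the values below describe single genes.

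**Figure D1:**
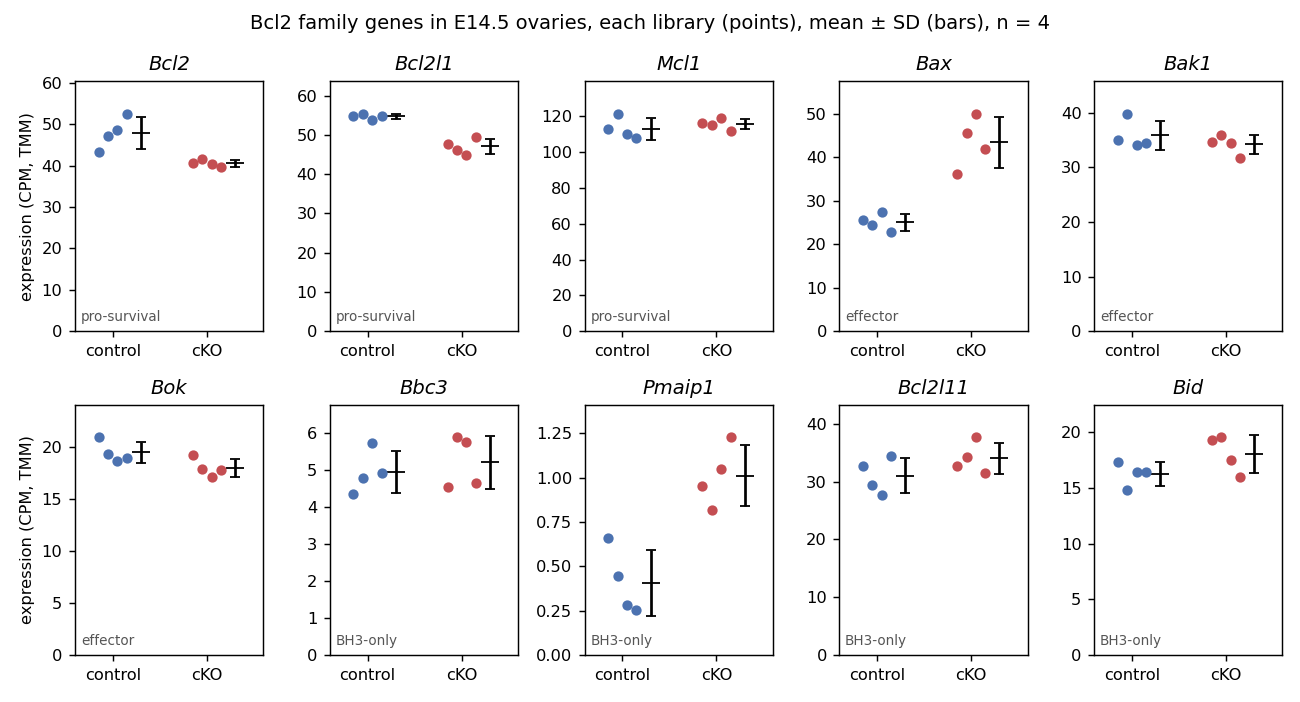
Expression of the 10 Bcl2 family genes in each library, in CPM after TMM scaling (vertical axis, from 0 in each panel), for 4 control (blue) and 4 *Bmpr1a*-cKO (red) libraries. Bars show the mean and SD; the 4 red *Bax* points, from 36.1 to 50.04, lie above the 4 blue ones, from 22.8 to 27.4, while the red *Bcl2* and *Bcl2l1* points lie below the blue.

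*Bax* (mm10, chr7:45461697-45466898, minus strand), the pore-forming effector, showed the largest change of the 9 tested genes. In controls it was measured at 25.5, 24.5, 27.4 and 22.8 CPM, from 310, 277, 293 and 362 counts. In *Bmpr1a*-cKO ovaries it was measured at 36.1, 45.6, 50.04 and 42.0 CPM, from 303, 613, 478 and 615 counts. The lowest *Bmpr1a*-cKO value exceeded the highest control value, and it was that of replicate 1, the shallowest library of the series. The means were 25.1 ± 1.92 and 43.4 ± 5.88 CPM (SD, n = 4 each), so that the spread was wider in the *Bmpr1a*-cKO. The Log2FC was 0.80 (SE 0.0951, 95% interval 0.60 to 1.00) with an FDR of 2.03e-05 in edgeR's quasi-likelihood test. The gene *Gm45808* overlaps *Bax* on the same strand, and how reads in the overlap were counted was not given.

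Scaling to germ cell markers bears on how the *Bax* difference is read. Libraries were scaled to the summed counts of 8 germ cell markers, of which 3 were higher and 2 lower as DEGs. Of all tested genes, 10.2% were DEGs. *Dazl*, among the higher, had the largest counts of the 8. This scaling therefore cannot separate the share of germ cells from changed expression of the markers. Under it the *Bax* Log2FC was 0.46 with an FDR of 0.0636, and the median of all genes moved to -0.33. Relative to that median the *Bax* difference was 0.79, and it was 0.80 in the TMM-scaled fit, but subtracting the median removes most of any scaling by construction, so this likeness does not offset the loss of the call.

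The level of *Bax* was also set against single germ cell genes within each library, which needs no scaling. *Ddx4*, an RNA helicase of germ cells, had a mean of 142 ± 21.9 CPM in the controls against 153 ± 32.3 CPM in the *Bmpr1a*-cKO (SD over 4 libraries a group, Log2FC 0.11, FDR = 0.561), but without *Bmpr1a*-cKO replicate 1 its Log2FC was 0.25 with an FDR of 0.0466. *Bax* counts were 0.199, 0.162, 0.163 and 0.190 of *Ddx4* counts in controls and 0.341, 0.273, 0.314 and 0.234 in the *Bmpr1a*-cKO, with no overlap. *Dazl*, a germ cell RNA-binding regulator, was itself higher (327 ± 45.3 to 506 ± 95.1 CPM, Log2FC 0.63, FDR = 0.00101). Against *Dazl*, *Bax* counts were 0.090, 0.071, 0.072 and 0.077 in controls and 0.094, 0.089, 0.098 and 0.068 in the *Bmpr1a*-cKO, and these ranges overlapped. Which cells of the ovary held the additional *Bax* RNA was not tested.

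The promoters of the 3 genes past the FDR threshold are shown because RNA of one rose and that of the other two fell. Each sequence is the 250 bases before the start of transcription in RefSeq (GRCm38.p6), on the minus strand and written 5′ to 3′, from chr7:45466899-45467148 for *Bax*, chr1:106714291-106714540 for *Bcl2* and chr2:152831729-152831978 for *Bcl2l1*, the latter being 1 of 3 starts listed for that gene. Capitals mark matches on either strand to any of 5 motifs, namely CACGTG (E-box), GGCGCC and GGAGCC (known from BMP-responsive SMAD binding), CNCCTCAG (known from STRA8 binding) and the degenerate p53 half-site.
Bax: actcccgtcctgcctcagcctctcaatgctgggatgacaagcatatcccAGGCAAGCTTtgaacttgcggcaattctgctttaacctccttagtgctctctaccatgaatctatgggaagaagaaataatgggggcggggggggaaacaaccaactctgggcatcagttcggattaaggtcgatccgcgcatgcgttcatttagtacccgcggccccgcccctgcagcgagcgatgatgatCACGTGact
Bcl2: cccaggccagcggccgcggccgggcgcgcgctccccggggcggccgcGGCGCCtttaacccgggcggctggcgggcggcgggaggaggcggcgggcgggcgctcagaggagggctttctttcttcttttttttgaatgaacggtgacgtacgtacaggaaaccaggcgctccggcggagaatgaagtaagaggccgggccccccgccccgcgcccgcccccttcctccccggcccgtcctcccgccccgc
Bcl2l1: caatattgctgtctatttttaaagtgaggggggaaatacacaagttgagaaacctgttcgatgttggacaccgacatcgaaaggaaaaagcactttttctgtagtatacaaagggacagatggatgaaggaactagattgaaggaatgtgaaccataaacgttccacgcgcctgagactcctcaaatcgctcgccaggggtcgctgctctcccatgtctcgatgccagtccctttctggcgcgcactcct
The *Bax* window held CACGTG at 9 bases and a p53 half-site at 201 bases before the start, motifs found in 6.02% and 7.13% of 32841 promoter windows of the same length. The *Bcl2* window held GGCGCC at 203 bases before the start, as 9.59% of windows do, and the *Bcl2l1* window shown held none of the 5 motifs, although the window of another *Bcl2l1* start (chr2:152828490-152828739) held GGAGCC at 181 bases. The 3 windows also differed in composition, with a GC content of 54.0% for *Bax*, 74.8% for *Bcl2* and 47.6% for *Bcl2l1*, where the median window has 52.4%. Over the 14 windows of the 9 family genes listed in RefSeq's table, 2 held CACGTG, 4 held GGCGCC, 6 held GGAGCC, none held CNCCTCAG and 1 held a p53 half-site. GGAGCC is in 25.98% and CNCCTCAG in 6.42% of all windows. These are matches of letters only, and no binding was measured here.

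*Bak1* and *Bok*, the other effector genes, did not pass the test. *Bak1* (chr17:27019810-27029009, minus strand) was at 35.0, 39.8, 34.1 and 34.5 CPM in controls and 34.6, 35.9, 34.5 and 31.8 CPM in *Bmpr1a*-cKO ovaries (Log2FC -0.07, 95% interval -0.23 to 0.09, FDR = 0.531). *Bok* (chr1:93685660-93695764, plus strand) was at 20.9, 19.3, 18.6 and 18.9 CPM in controls and 19.2, 17.8, 17.1 and 17.7 CPM in the *Bmpr1a*-cKO (Log2FC -0.12, 95% interval -0.29 to 0.06, FDR = 0.316). Both groups overlapped for either gene, and the intervals leave out a change as large as that of *Bax*. *Bak1* is overlapped by *Ggnbp1* on the opposite strand, and whether counting used the strand was not stated.

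*Bcl2* and *Bcl2l1*, the pro-survival genes, were lower in *Bmpr1a*-cKO ovaries by amounts short of the DEG threshold. *Bcl2* (chr1:106538178-106714274, minus strand) was at 43.3, 47.2, 48.5 and 52.6 CPM in controls and 40.5, 41.7, 40.4 and 39.6 CPM in the *Bmpr1a*-cKO. The highest *Bmpr1a*-cKO value of *Bcl2* was below its lowest control value, and controls were the more variable group (47.9 ± 3.81 against 40.6 ± 0.858 CPM, SD, n = 4 each). The Log2FC of *Bcl2* was -0.24 (SE 0.0709, 95% interval -0.39 to -0.09, FDR = 0.0182). Without control replicate 4, which had the highest value, the Log2FC was -0.20 with an FDR of 0.0629. *Bcl2* is overlapped by *Mir3473f* and *Gm37053* on its own strand and by *D630008O14Rik* on the other.

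*Bcl2l1* (chr2:152780668-152831728, minus strand) was at 54.9, 55.4, 53.9 and 54.9 CPM in controls and 47.7, 46.3, 44.9 and 49.5 CPM in *Bmpr1a*-cKO ovaries. Its control libraries lay close together, and all *Bmpr1a*-cKO libraries lay below them (54.8 ± 0.621 against 47.1 ± 1.96 CPM, SD, n = 4 each). The Log2FC was -0.22 (SE 0.0613, 95% interval -0.35 to -0.09, FDR = 0.0144). The FDR was 0.0515 without *Bmpr1a*-cKO replicate 2 and 0.0512 without *Bmpr1a*-cKO replicate 3. No annotated gene overlaps *Bcl2l1*. Both *Bcl2* and *Bcl2l1* kept a negative Log2FC when libraries were scaled to *Ddx4* counts alone, but neither passed (FDR = 0.702 and 0.744). Both were DEGs under the germ cell marker scaling (Log2FC -0.56 and -0.54). That scaling moved the median of all genes to -0.33 and made 2601 genes lower DEGs. Relative to the median, *Bcl2* and *Bcl2l1* were at -0.23 and -0.21 there and at -0.24 and -0.21 with TMM. These calls therefore do not show a stronger fall.

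*Mcl1* (chr3:95658788-95663176, plus strand), the pro-survival gene with the most counts, was at 113, 121, 110.2 and 108 CPM in controls and 116, 115, 119 and 112 CPM in the *Bmpr1a*-cKO. These ranges overlapped, and the Log2FC was 0.03 (95% interval -0.09 to 0.15, FDR = 0.717), a value near 0 whose sign turned with the scaling. The 3 pro-survival genes together summed to 211 to 224 CPM in controls and 201 to 205 CPM in *Bmpr1a*-cKO libraries.

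Markers of other cell types moved alongside these differences. The 7 pregranulosa markers, genes of the supporting cells that surround the germ cells, summed to 1296 to 1452 CPM in controls and 1070 to 1305 CPM in the *Bmpr1a*-cKO. Of these 7 markers 5 had an FDR below 0.05, all of them lower, where 12.5% of all tested genes were. The transcription factor gene *Foxl2* was a DEG (Log2FC -0.57). The 8 germ cell markers summed to 608 to 824 CPM in controls and 659 to 1030.5 CPM in the *Bmpr1a*-cKO. Among them *Dazl* (Log2FC 0.63), *Dnd1* (0.78) and *Tdrd5* (1.05) were higher and *Mael* (-0.80) and *Tdrd9* (-0.63) lower as DEGs, where 10.2% of all tested genes were DEGs. The 7 macrophage markers summed to 33.5 to 42.0 CPM in controls and 44.8 to 56.5 CPM in the *Bmpr1a*-cKO. Of 6 tested, 4 were higher (17.3% of all tested genes were), with *Adgre1*, *C1qa* and *C1qb* past the DEG threshold (Log2FC 0.78, 0.69 and 0.70). Control and *Bmpr1a*-cKO libraries overlapped for *C1qa* and *C1qb*. The *C1qa* call was lost without control replicate 1 or 4 or *Bmpr1a*-cKO replicate 3 or 4 (FDR up to 0.108), and the *C1qb* call without control replicate 4 or *Bmpr1a*-cKO replicate 3 or 4 (FDR up to 0.0859). None of 6 endothelial markers passed in edgeR, limma or DESeq2, and 0 of them had an unadjusted p below 0.05 (285 to 335 against 266 to 310 CPM). Of 4 tested erythroid markers 1, *Hbb-y*, was lower (277 to 421 against 245 to 333 CPM for the list). The part these marker differences have in the values of *Bax*, *Bcl2* and *Bcl2l1* was not tested.

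None of the 3 tested BH3-only genes passed, and 0 of them had an unadjusted p below 0.05 in edgeR, limma or DESeq2. *Bbc3* (chr7:16308393-16318205, plus strand), a target of p53, was at 4.36, 4.78, 5.71 and 4.92 CPM in controls and 4.53, 5.87, 5.76 and 4.64 CPM in *Bmpr1a*-cKO ovaries (Log2FC 0.08, 95% interval -0.25 to 0.41, FDR = 0.744). *Bcl2l11* (chr2:128126038-128162547, plus strand), whose protein BIM responds to loss of growth factors, was at 32.6, 29.4, 27.7 and 34.4 CPM in controls and 32.8, 34.4, 37.7 and 31.5 CPM in the *Bmpr1a*-cKO (Log2FC 0.13, 95% interval -0.05 to 0.31, FDR = 0.288). *Bid* (chr6:120891930-120916853, minus strand), which links death receptors to mitochondria, was at 17.3, 14.8, 16.5 and 16.5 CPM in controls and 19.3, 19.6, 17.5 and 15.97 CPM in the *Bmpr1a*-cKO (Log2FC 0.15, 95% interval -0.06 to 0.35, FDR = 0.272). All 3 pairs of ranges overlapped. The signs of *Bbc3*, *Bcl2l11* and *Bid*, positive here, turned negative under the germ cell marker scaling, which moved the median of all genes to -0.33. Relative to that median they were at 0.07, 0.13 and 0.16, but subtracting the median removes most of any scaling by construction. *Bid* is overlapped by *Bcl2l13* and *Gm17812* on the opposite strand and by *Gm44260* on its own.

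*Pmaip1*, which encodes the p53 target NOXA, was near the detection limit. It had 8, 5, 3 and 4 counts in the control libraries and 8, 11, 10 and 18 counts in the *Bmpr1a*-cKO libraries, 20 against 47 in all. In CPM these were 0.658, 0.443, 0.281 and 0.252 in controls and 0.954, 0.818, 1.05 and 1.23 in the *Bmpr1a*-cKO, a ratio of means of 2.48. The groups did not overlap, and an exact two-sided permutation test over the libraries gave 0.0286, the lowest p attainable with 70 arrangements and unadjusted for the other genes. In a fit with no filter, over 20169 genes, its Log2FC was 1.31 (SE 0.406, FDR = 0.0181). With such counts the size of the difference remains imprecise.

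**Figure D2:**
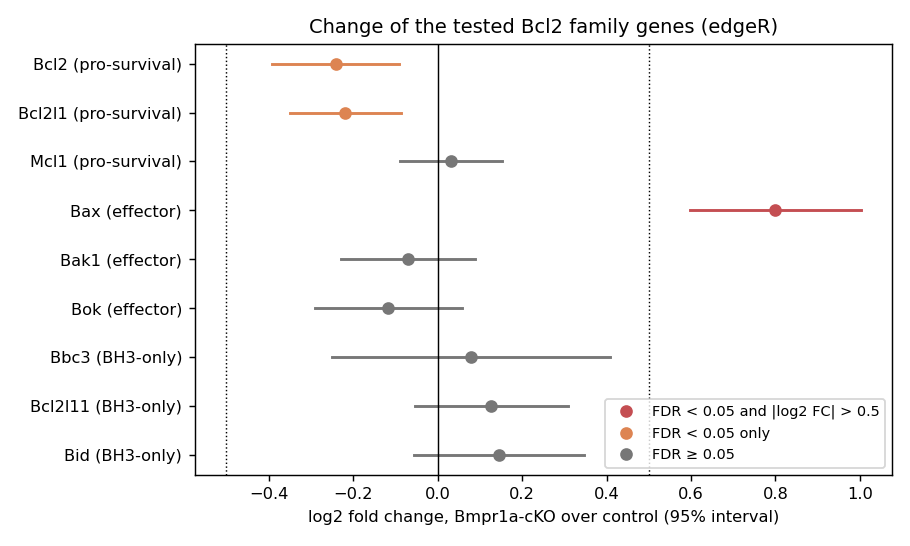
Log2 fold change of *Bmpr1a*-cKO over control (horizontal axis) with its 95% interval for the 9 tested Bcl2 family genes, 4 libraries a group. *Bax* lies at 0.80 beyond the dotted lines at 0.5 on either side of 0, the intervals of *Bcl2* and *Bcl2l1* lie below 0, and those of the other 6 genes include 0.

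To compare levels between genes, CPM were divided by the length of each gene's merged exons in kilobases. The order of the genes rests on these lengths, such as 1.576 kb for *Bax* and 9.157 kb for *Bcl2*. Which transcripts of each gene the ovaries held was not tested. On this per-length scale, control ovaries held *Mcl1* at 33.1, *Bax* at 15.9, *Bak1* at 14.9, *Bcl2l1* at 11.9, *Bok* at 10.6, *Bcl2* at 5.23, *Bid* at 4.58, *Bcl2l11* at 3.87, *Bbc3* at 2.33 and *Pmaip1* at 0.150 CPM per kb. Neighbours in this order were separate in all 4 libraries except *Bax* and *Bak1*, *Bcl2* and *Bid*, and *Bid* and *Bcl2l11*, whose ranges overlapped. In *Bmpr1a*-cKO ovaries *Bax*, at 27.6 ± 3.73 CPM per kb, had left the range of *Bak1* (14.2 ± 0.719) and was nearer to *Mcl1* (33.8 ± 0.845; SD, n = 4 each). *Bcl2l1*, at 10.3 CPM per kb, overlapped *Bok* at 9.76, and *Bcl2*, at 4.43, came after *Bid* at 5.09, with overlapping ranges.

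**Figure D3:**
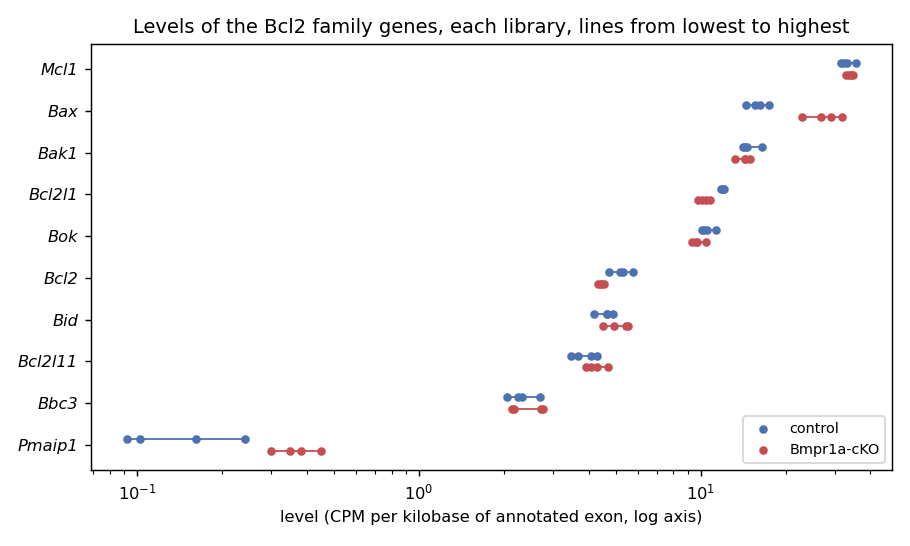
Level of each of the 10 Bcl2 family genes on the per-length scale (CPM per kilobase of merged exon, log axis) in 4 control and 4 *Bmpr1a*-cKO libraries, in the order of the control means. *Mcl1* is at the top at 33.1 and *Pmaip1* at the bottom at 0.150, and *Bax* is the gene with the widest gap between the groups among those tested.

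The balance of *Bax* against the pro-survival genes was read as a ratio of these levels within each library, which no scaling between libraries can change. The size of each ratio rests on the exon lengths, and in CPM alone control *Bax* (25.1) was below control *Bcl2* (47.9). The ratio of *Bax* to *Bcl2* was 3.42, 3.02, 3.29 and 2.53 in controls and 5.18, 6.35, 7.20 and 6.15 in *Bmpr1a*-cKO ovaries. *Bax* over *Bcl2l1* ranged from 1.21 to 1.48 in controls and from 2.20 to 3.24 in the *Bmpr1a*-cKO. *Bax* over *Mcl1* ranged from 0.438 to 0.540 and from 0.673 to 0.913. In each of these the lowest *Bmpr1a*-cKO library was above the highest control library, as it was for *Bax* over its fellow effector *Bak1* (0.940 to 1.23 against 1.596 to 2.21). The ratios restate the differences of their parts and are given without a test, and RNA levels do not give the balance of the proteins. Cell death was not measured here, and the authors report that mutant germ cells appeared to survive normally at the fetal stages studied.

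**Figure D4:**
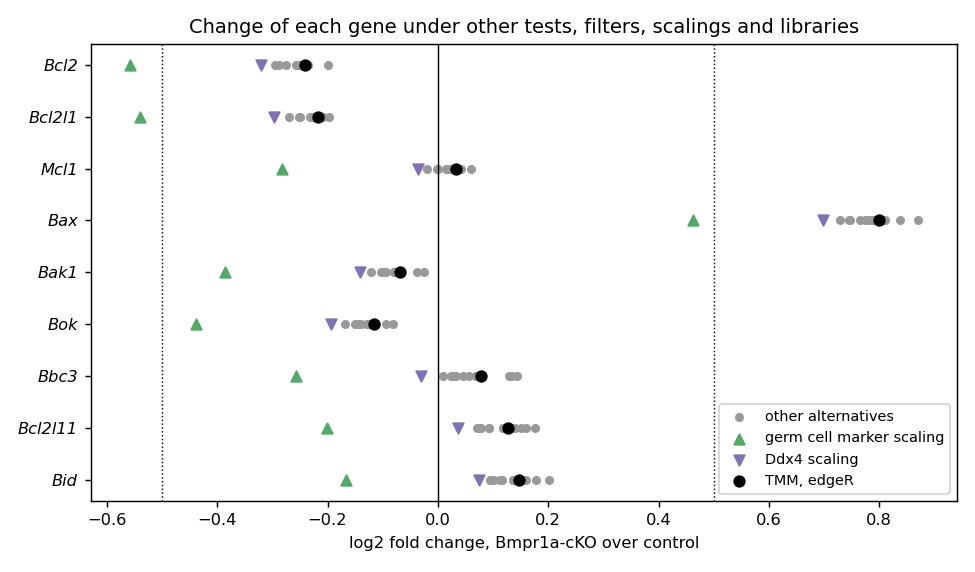
Log2 fold change (horizontal axis, *Bmpr1a*-cKO over control) of the 9 tested Bcl2 family genes under TMM scaling in edgeR (black), under scaling to germ cell markers (green) or to *Ddx4* alone (purple), and under the other tests, filters, scalings and left-out libraries (grey). *Bax* stays above 0 and *Bcl2* and *Bcl2l1* below 0 throughout, and the green points lie to the left for every gene.

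The other genes of the death pathways were read from 5 lists holding 61 genes, of which 47 were tested. Of the 47, 13 were higher and 3 lower at an FDR below 0.05, a share of 34.04% that is near the 29.8% of all tested genes (17.3% higher and 12.5% lower). A single gene was a DEG, a share of 2.13% against 10.2% of all tested genes. With library size alone as the scaling the split was 9 higher and 7 lower, and under the germ cell marker scaling 0 were higher and 6 lower. When libraries were scaled to *Ddx4* counts alone in edgeR, 0 of the 47 passed and 1 had an unadjusted p below 0.05. The median Log2FC of the 47 genes was 0.09. Most of the genes past the FDR threshold are named below, and apart from those chosen by symbol (*Apaf1*, *Casp9*, *Xiap*, *Bcl2l2*, *Bad*, *Fas*, *Trp53* and *Trp63*) or for being a DEG (*Bik*), they were picked after their values had been seen.

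Among 15 further Bcl2 family genes, 8 were tested and 2 passed, where 29.8% of all tested genes did. *Bik*, a BH3-only gene, was measured at 0.740, 0.974, 1.69 and 0.631 CPM in controls and 2.38, 2.31, 1.99 and 1.71 CPM in the *Bmpr1a*-cKO, from 9 to 31 counts a library. All *Bmpr1a*-cKO values of *Bik* were above the controls (Log2FC 1.09, SE 0.297, FDR = 0.0117), but without control replicate 4 the Log2FC was 0.88 with an FDR of 0.0528. *Bmf*, another BH3-only gene, had a Log2FC of 0.18 (FDR = 0.0349), a call kept in 8 of 21 alternatives. It was lost in DESeq2 (FDR = 0.0565) and on the removal of any library but *Bmpr1a*-cKO replicate 1 (FDR up to 0.123). Under germ cell marker scaling the *Bmf* Log2FC was -0.14 (FDR = 0.556). The pro-survival gene *Bcl2l2* (Log2FC -0.03, FDR = 0.754) and the BH3-only gene *Bad* (Log2FC -0.10, FDR = 0.389) did not pass. The other 7 genes, which include *Hrk* and *Bcl2l10*, were below the filter.

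In the list of mitochondrial pathway genes, 4 of 16 were higher and 1 was lower, where 17.3% and 12.5% of all tested genes were. Cytochrome c, encoded by *Cycs*, rose from 23.5 ± 1.32 to 32.3 ± 2.30 CPM (SD, n = 4 each; Log2FC 0.47, FDR = 0.000414). *Apaf1*, the scaffold on which cytochrome c assembles the apoptosome, rose from 61.3 ± 4.38 to 72.5 ± 1.11 CPM (Log2FC 0.24, FDR = 0.0107). *Aifm1*, an oxidoreductase gene of the mitochondrion, was also higher (Log2FC 0.31, FDR = 0.0267), and *Diablo*, whose protein relieves caspases of their inhibitors, was lower (Log2FC -0.24, FDR = 0.0267). The *Aifm1* call was lost with library size alone (FDR = 0.0649) and in 6 of 8 fits with 1 library left out (FDR up to 0.118), being kept without control replicate 2 or *Bmpr1a*-cKO replicate 1. The *Diablo* call was lost in 5 of 8 such fits (FDR up to 0.0745), namely without control replicate 1, 2 or 3 or *Bmpr1a*-cKO replicate 2 or 4. *Casp9*, the initiator caspase of the apoptosome, did not pass (Log2FC 0.06, FDR = 0.565). None of the 5 that passed reached the DEG threshold.

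Among 8 inhibitor of apoptosis genes, 6 were tested, 1 was higher and 1 was lower, where 17.3% and 12.5% of all tested genes were. *Birc5*, which serves chiefly in cell division, was higher (Log2FC 0.38, FDR = 0.00176), *Birc2* was lower (Log2FC -0.17, FDR = 0.0392), and *Xiap*, the direct caspase inhibitor, did not pass (Log2FC 0.12, FDR = 0.261). Among 10 death receptor genes, 7 were tested and *Tnfrsf10b*, a receptor for TRAIL, was the 1 that passed (Log2FC 0.28, FDR = 0.0280). Of all tested genes, 29.8% passed. With 1 library left out, *Birc2* lost its call in 6 of 8 fits (all but those without control replicate 3 or *Bmpr1a*-cKO replicate 1, FDR up to 0.111) and *Tnfrsf10b* in 5 of 8 (without control replicate 1, 2 or 4 or *Bmpr1a*-cKO replicate 2 or 3, FDR up to 0.105). *Fas* was below the filter, with 3 or 4 counts in each control library and 4 to 10 in each *Bmpr1a*-cKO library (0.268 and 0.572 CPM on average).

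Of 12 regulators acting upstream of the family, 10 were tested, 5 were higher and 1 was lower. Of all tested genes, 17.3% were higher and 12.5% lower. *Trp53*, encoding p53, rose from 83.9 ± 3.66 to 106 ± 5.76 CPM (SD, n = 4 each; Log2FC 0.34, FDR = 0.000651), with no overlap between groups. Its negative regulators *Mdm2* (Log2FC 0.26, FDR = 0.0109) and *Mdm4* (0.20, FDR = 0.0202) were higher, as were the checkpoint kinase gene *Chek2* (0.45, FDR = 0.00485) and the cell cycle factor *E2f1* (0.35, FDR = 0.0141). *Mdm4* lost its call without control replicate 1 or 4 or *Bmpr1a*-cKO replicate 2 or 3 (FDR up to 0.0864), and *E2f1* without control replicate 4 or *Bmpr1a*-cKO replicate 3 (FDR up to 0.0596). *Atm*, the kinase gene that responds to DNA double-strand breaks, was lower (Log2FC -0.28, FDR = 0.00471). *Trp63*, the p53 relative that guards oocytes later in life, was below the filter at 0.368 and 0.466 CPM. Of the genes higher in these lists, *Bmf*, *Apaf1*, *Aifm1*, *Tnfrsf10b*, *Mdm2* and *Mdm4* had a negative Log2FC under the germ cell marker scaling. *Trp53* (0.013, FDR = 0.958), *Chek2* (0.11, FDR = 0.671) and *E2f1* (0.014, FDR = 0.956) stayed positive there but lost their calls. So did *Cycs* (0.15, FDR = 0.554), *Birc5* (0.039, FDR = 0.877) and *Bik* (0.76, FDR = 0.0819). None of these genes passed when libraries were scaled to *Ddx4* counts alone.

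**Figure D5:**
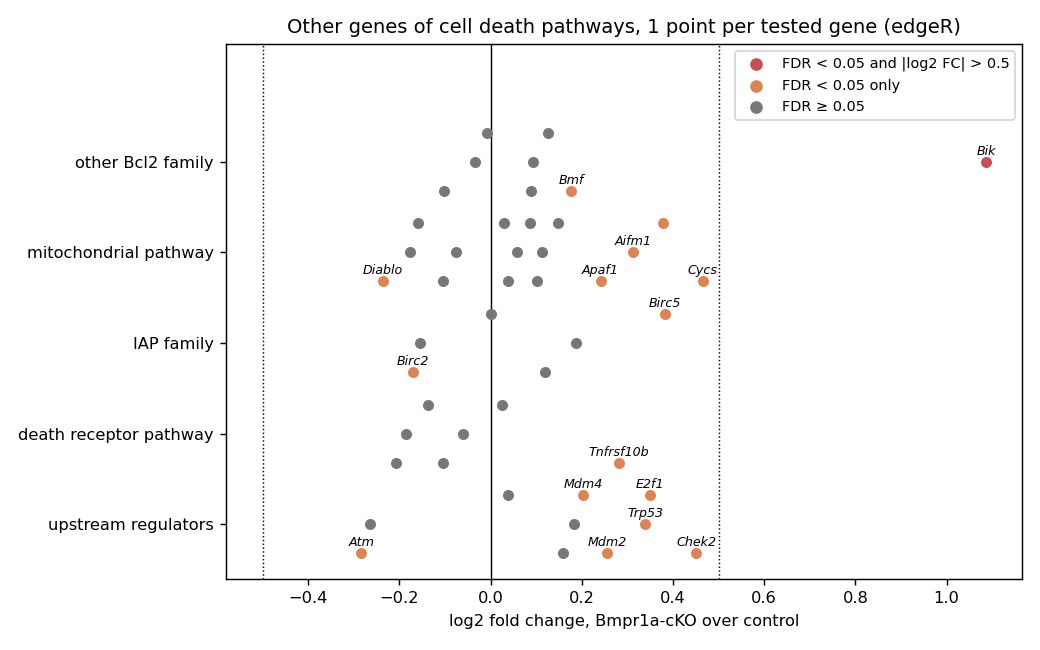
Log2 fold change (horizontal axis, *Bmpr1a*-cKO over control) of the 47 tested genes of the 5 other death pathway lists, 1 point a gene, coloured by whether it passed the FDR and fold thresholds, with dotted lines at 0.5 on either side of 0. Height within a row has no meaning; *Bik*, at 1.09, is the 1 point beyond the lines.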

How the data were processed

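The authors prepared stranded paired-end libraries, and the submitters' processing notes name Trimmomatic 0.39, FastQC 0.11.9, STAR 2.5.2 and edgeR with the mm10 build. The annotation and the strand setting used for counting were not given in the sources used here. The deposited files hold a raw read count for each gene in each library, and an additional table deposited by the authors holds a normalised signal for 14244 genes, labelled CPM, whose columns do not sum to 1000000. That table was used only for its gene set, as an alternative filter.

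Counts were fitted with edgeR 4.0.16 in R 4.3.3, using filterByExpr, TMM scaling, a quasi-likelihood F test of genotype and Benjamini-Hochberg adjustment over 14249 genes. Each SE was derived from the coefficient and its F statistic. CPM are TMM-scaled. Gene positions and merged exon lengths came from GENCODE vM21. Depth was 8562961 to 15365052 counts a library. The interval given with a Log2FC rests on its SE from the quasi-likelihood test, and so is not limited to counting error. Libraries are separate pools of embryos, so the spread is between pools. Members and gene lists were chosen with earlier results of these data known. Genes named are the 10 members, the other apoptosis genes that were DEGs together with *Apaf1*, *Casp9*, *Xiap*, *Bcl2l2*, *Bad*, *Fas*, *Trp53* and *Trp63*, *Bmpr1a*, *Ddx4* and marker genes that were DEGs. Further genes past the FDR threshold were named after their values were seen. A further gene of the lists was counted and plotted but is not reported here by name. Alternatives were the edgeR likelihood ratio test, limma 3.58.1 voom, DESeq2 1.42.0, other scalings, filters and thresholds, the replicate number as a block and each library left out. Whether replicate numbers pair the libraries was not established, so they were not taken as pairs.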

Additional observations from a re-analysis of the deposited data

Results flagged for a closer look

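There were 4 single libraries that stood apart within their group by Dixon's criterion at its 95% level, among 80 groups of 4 examined for 40 genes. This is a share of 5.0%, and chance marks about 1 in 20 groups. *Bak1* was highest in control replicate 2, at 39.85 CPM against 35.03 CPM in the next library. *Casp9* was highest in *Bmpr1a*-cKO replicate 3, at 41.98 CPM against 38.97 CPM. The germ cell gene *Tdrd5* was highest in control replicate 3, at 34.65 CPM against 21.25 CPM. The macrophage gene *Adgre1* was lowest in control replicate 1, at 2.96 CPM against 3.66 CPM.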

How the results depend on the processing

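Over the alternatives run, *Bax* kept a positive Log2FC, 0.73 to 0.87 with 1 library left out, and an FDR of at most 0.000217 there. Its FDR exceeded the threshold under germ cell marker scaling (0.46, FDR 0.0636). Of 189 values for the 9 tested members, 175 kept their direction and call, 6 lost their call and 8 turned in sign. Bcl2 family DEGs numbered 2 under germ cell marker scaling, both lower, 2 with no filter and 3 with no fold threshold, and 1 to 2 with 1 library left out. Members at an FDR below 0.05 numbered 1 with a threshold of 0.01 and 2 to 4 with 1 library left out. All-gene DEGs numbered 2947 under germ cell marker scaling, 4242 with no fold threshold and 1288 to 1627 with 1 library left out. The other death pathway DEGs numbered 5 under germ cell marker scaling, 0 when 10 counts were required in every library (which removes *Bik*), 0 at an FDR of 0.01, 16 with no fold threshold and 0 to 2 with 1 library left out, being 0 without control replicate 4 and 2 without *Bmpr1a*-cKO replicate 3. Those at an FDR below 0.05 numbered 6 under germ cell marker scaling, all lower, 6 at 0.01 and 10 to 18 with 1 library left out, with 10 without control replicate 1 or 4 or *Bmpr1a*-cKO replicate 2 or 3. The cause of these changes was not tested.

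Scaling to *Ddx4* alone was chosen after seeing the data. It gave 725 all-gene DEGs, 1 member at an FDR below 0.05 (*Bax*, 0.70, FDR 0.0447), and 0 other death pathway genes by either criterion (1 of 47 at an unadjusted p below 0.05 in edgeR). *Bcl2* was at -0.32 (FDR 0.702) and *Bcl2l1* at -0.30 (FDR 0.744). *Bcl2* and *Bcl2l1* were DEGs under germ cell marker scaling (-0.56 and -0.54), where the median of all genes was -0.33. Under that scaling the Log2FC turned for *Mcl1* (-0.28), *Bbc3* (-0.26), *Bcl2l11* (-0.20), *Bid* (-0.17), *Bmf* (-0.14), *Apaf1* (-0.082), *Aifm1* (-0.043), *Tnfrsf10b* (-0.03), *Mdm2* (-0.064), *Mdm4* (-0.12), *Casp9* (-0.26), *Xiap* (-0.21) and *Ddx4* (-0.23). Under *Ddx4* scaling it turned for *Mcl1* (-0.036), *Bbc3* (-0.031) and *Casp9* (-0.020). *Mcl1* was also negative with upper-quartile scaling (-0.0014) and library size alone (-0.021).

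With the replicate number as a block there were 1457 all-gene DEGs, 1 member DEG, 3 members and 18 other death pathway genes at an FDR below 0.05, and no member's call changed. Of the other genes named, the block changed the call of *Bmpr1a* alone (FDR 0.0416). Same-numbered libraries correlated in their deviations at 0.198, 0.161, 0.108 and -0.0871, so the numbers were not taken as pairs, and not every library correlated best with its own number. Depth limits *Pmaip1*, which entered 5 of the fits with 1 library left out (Log2FC 1.10 to 1.65, FDR 0.0565 without control replicate 4). It passed the filter there through the *Bmpr1a*-cKO libraries, where it is higher, so those values and the second member DEG are no support for its difference.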
